A study of Mus musculus with 10 samples.

Results

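The EGF receptor family comprises receptor tyrosine kinases on the surface of epithelial cells and the growth factors that bind them, and 10 of its genes were followed here among the 31053 genes of a mouse single-cell count table. The members were chosen by name, as receptors (Egfr, Erbb2 and Erbb3) and as ligands (Egf, Tgfa, Areg, Btc, Hbegf, Ereg and Nrg1), and not by any measured value. EGFR binds EGF, TGF-alpha, amphiregulin (Areg), betacellulin (Btc), HB-EGF (Hbegf) and epiregulin (Ereg). ERBB2 has no known soluble ligand and acts as a partner in dimers, while ERBB3 binds neuregulins such as NRG1 and has little kinase activity of its own. The ligands are made as membrane-anchored precursors that proteases release, and the receptors signal through Ras and ERK and through PI3 kinase and Akt. In the intestinal crypt, Paneth cells are a known source of EGF, and EGF is a standard part of organoid medium.

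The series held 10 single-cell RNA-seq libraries, 8 from small-intestinal organoids and 2 from colonic crypts. Organoids were grown in Matrigel from crypts of the proximal small intestine of mice 6 to 12 weeks old. ENR-organoids (3 libraries, passages 2, 7 and 3) were kept in EGF at 50 ng/mL, Noggin at 100 ng/mL, which blocks BMP signals, and R-Spondin 1 at 500 ng/mL, which raises Wnt signals. Hyper-organoids (3 libraries, passages 1, 6 and 3) were kept in a medium of 8 components. It held EGF at 50 ng/mL, 10% R-Spondin 1 conditioned medium, the BMP receptor inhibitor LDN193189 at 0.2 µM, GSK-3 Inhibitor XV at 0.1 µM, the p38 inhibitor Pexmetinib at 1 µM, FGF2 at 20 ng/mL, the histone deacetylase inhibitor VPA at 500 µM and the EZH2 inhibitor EPZ6438 at 2 µM. The -VE-organoids (2 libraries, passages 1 and 6) had the Hyper medium without VPA and EPZ6438, as the study's text describes it. All 3 media thus supplied EGF protein, and ENR-organoids lacked the small molecules and FGF2. Sample titles gave libraries of the same number a shared code. Hyper and -VE libraries numbered 1 and 2 came from cultures started from ENR-organoids, and libraries numbered 3 from cultures started from primary crypts, with no -VE culture. The labels do not say whether the codes of libraries 1 and 2 mark separate lines or 1 line at different passages. The colonic crypts were 1 library from untreated mice and 1 from mice given 2.5% dextran sulfate sodium (DSS), a chemical that injures the colonic epithelium, for 5 days. The colitis mice were females 8 weeks old, and the labels do not say how many mice entered a library or give the strain behind each organoid line.

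The authors kept 25204 cells, 1983 to 4293 in each organoid library and 1132 and 1933 in the colonic libraries. Kept cells carried 89124015 to 170019527 unique molecular identifiers (UMIs, each standing for 1 captured transcript) in an organoid library, and 19906845 and 32397122 in the normal and DSS libraries. Every pair of libraries shared between 1 and 42 cell barcodes (median 6 over 45 pairs), and at most 5 of them were kept cells in both. The labelled cell classes held their marker genes: enteroendocrine (EE), transit-amplifying (TA), Paneth (PC), enterocyte (EC) and enterocyte progenitor (EP) markers were highest in their own class in every library with at least 10 such cells. Goblet (GC) markers were highest in the goblet class in 7 of 8 libraries. The stem class (SC) was the exception. Its 4 markers (Lgr5, Ascl2, Olfm4 and Cd44) led in 5 of 8 libraries, and in all 3 Hyper libraries their summed level was slightly higher in TA cells.

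Of the 10 genes, Areg, Ereg and Btc lie together on chromosome 5 of the mouse genome (GRCm38, GENCODE vM21), with Epgn, another ligand gene of the family. Ereg spans 91074622-91093646 and Areg 91139599-91148432 on the plus strand, and Btc spans 91357261-91402994 on the minus strand. The gap between Ereg and Areg is 45952 bp, and that between Areg and Btc 208828 bp. Egfr lies at chr11:16752203-16918158 and Erbb2 at chr11:98412470-98437716, both on the plus strand, and Erbb3 at chr10:128567523-128589652 on the minus strand. Tgfa lies at chr6:86195223-86275719 on the plus strand and Egf at chr3:129677565-129755316 on the minus strand. Genes on the opposite strand overlap, among others, Egfr (Egfros), Erbb2 (Mien1), Tgfa (Gm43917), Egf (Gm42697, Gm42650 and 6330410L21Rik) and Ereg (Gm19610). On the same strand, Gm24515 overlaps Egf and Mir6917 overlaps Erbb3.

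Promoters are shown for Areg and Btc, neighbours of which Btc passed the test over whole libraries and Areg did not, for Tgfa, the ligand that rose in Hyper-organoids in 3 of 4 classes tested, and for the receptor Egfr, which was lower. Each line gives the 150 bases before the RefSeq start site (GRCm38.p6), 5′ to 3′ on the strand of the gene, with capitals for the letters of a motif found on either strand.
Areg, chr5:91139449-91139598, plus strand: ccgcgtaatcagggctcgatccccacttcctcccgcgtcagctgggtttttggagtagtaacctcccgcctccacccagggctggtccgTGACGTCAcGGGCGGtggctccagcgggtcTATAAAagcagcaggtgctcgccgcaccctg
Btc, chr5:91402995-91403144, minus strand: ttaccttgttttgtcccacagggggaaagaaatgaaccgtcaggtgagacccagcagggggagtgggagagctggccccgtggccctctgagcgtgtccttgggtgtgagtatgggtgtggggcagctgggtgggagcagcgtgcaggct
Tgfa, chr6:86195072-86195221, plus strand: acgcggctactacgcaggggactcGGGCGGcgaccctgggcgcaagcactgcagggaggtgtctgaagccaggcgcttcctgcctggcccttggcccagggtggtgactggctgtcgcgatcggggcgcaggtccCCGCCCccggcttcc
Egfr, chr11:16752053-16752202, plus strand: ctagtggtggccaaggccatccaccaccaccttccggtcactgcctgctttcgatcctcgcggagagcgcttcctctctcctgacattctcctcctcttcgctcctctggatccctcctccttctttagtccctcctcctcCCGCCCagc
The motifs were searched on both strands of the 250 bases before and 50 after each start. They were a cyclic AMP response element (TGACGTCA) and the motif of the activator SP1 (GGGCGG). The core promoter motif TATAAA, the motif TGANTCA of AP-1 and the motif GGAATG of TEAD factors were searched as well. The Areg window held the cyclic AMP response element 61 bases before the start, a SP1 match 52 bases before it, a TATA match 31 bases before it and another SP1 match 37 bases after it. Of 32851 mouse promoter windows of this length, 1.79% held the cyclic AMP response element, 35.7% SP1, 13.6% TATA, 7.81% AP-1 and 14.7% TEAD. The Tgfa window held SP1 matches 126 and 15 bases before the start, Egfr held 1 SP1 match 9 bases before it, and Erbb2 a TEAD match 88 bases before it. Neither the Btc nor the Egf windows held any of these letters. Ereg, Erbb3, Hbegf and Nrg1 had no entry in the promoter table. These matches describe the letters only.

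The first comparison asked how the complete Hyper medium changed the family relative to ENR medium. Over all cells of a library, the 3 receptors fell by 1.40- to 1.5-fold in Hyper-organoids, Tgfa, Egf and Btc rose by 1.35- to 1.87-fold, Hbegf fell by 1.20-fold, and Areg and Ereg did not pass the test. Values are UMI counts relative to the library total (CPM, scaled by edgeR's TMM factors), and a change was called past an adjusted p of 0.05 in edgeR's quasi-likelihood test (Benjamini-Hochberg over the 16037 genes tested). By this rule 7 of the 9 members tested differed, against 56.8% of all genes, with 3 higher (29.5% of all genes) and 4 lower (27.3%). None of the 9 also reached 2-fold, against 22.9% of all genes, and neither did any with DESeq2, though 7 passed at an unadjusted p under 0.05. A share of changed genes this near the background is no result about the family. In 7 of the 9 the 3 Hyper libraries did not overlap the 3 ENR libraries, as in 64.4% of all genes. The median log2 fold change was 0.05 over the members and -0.01 over all genes.

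Among the receptors, Egfr stood at 13.5, 12.5 and 10.52 CPM in ENR libraries 1 to 3, at 10.8 and 12.3 CPM in the -VE libraries, and at 7.95, 8.73 and 7.87 CPM in the Hyper libraries. Every Hyper library was below every other library. The log2 fold change was -0.57 (SE 0.11, adjusted p = 0.00221) against ENR-organoids and -0.50 (SE 0.12, adjusted p = 0.0094) against -VE-organoids. Erbb2 read 22.98, 24.1 and 22.2 CPM in ENR, 19.6 and 23.9 CPM in -VE, and 13.6, 17.5 and 15.2 CPM in Hyper libraries. Its log2 fold changes were -0.58 (SE 0.11, adjusted p = 0.00215) and -0.50 (SE 0.12, adjusted p = 0.00998), with Hyper again lowest throughout. Erbb3 read 43.7, 44.0 and 44.3 CPM in ENR, 35.5 and 38.3 CPM in -VE, and 25.7, 34.8 and 34.0 CPM in Hyper libraries. It fell against ENR-organoids (log2 -0.48, SE 0.11, adjusted p = 0.00517), whereas its difference from -VE-organoids was -0.23 on the log2 scale (SE 0.12, adjusted p = 0.149). Erbb3 libraries in the 3 media thus fell into 3 ranges without overlap, with the -VE libraries in the middle. The other receptor of the family, Erbb4, had too few UMIs to be tested. In a sum over a library, fewer cells of a type and less RNA per cell cannot be told apart.

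Among the ligands, Tgfa read 6.02, 5.14 and 5.06 CPM in ENR, 6.78 and 7.88 CPM in -VE, and 7.94, 8.34 and 8.62 CPM in Hyper libraries. It rose in Hyper-organoids against ENR-organoids (log2 0.62, SE 0.10, adjusted p = 0.00117), and every Hyper library was above every -VE library without passing the test (log2 0.18, adjusted p = 0.229). Egf was rare, with 65 to 68 UMIs in each ENR library, 82 and 94 UMIs in the -VE libraries, and 142 to 189 UMIs in the Hyper libraries. Its level was 0.68 ± 0.11 CPM in ENR (SD, n = 3), 0.65 ± 0.22 CPM in -VE (SD, n = 2) and 1.28 ± 0.22 CPM in Hyper libraries (SD, n = 3). Egf rose against both (log2 0.91, SE 0.25, adjusted p = 0.014, and log2 0.97, SE 0.28, adjusted p = 0.0216). The first call was lost without ENR library 2 (adjusted p = 0.0577) and when every cell was thinned to 10000 UMIs (adjusted p = 0.0679). The second was lost without -VE library 2 (adjusted p = 0.151) and without Hyper library 3 (adjusted p = 0.0535).

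Btc and Hbegf followed the opposite order of the media. Btc, a ligand of EGFR and ERBB4, read 10.2, 11.1 and 9.09 CPM in ENR, 14.7, 12.3 and 13.9 CPM in Hyper, and 18.4 and 18.1 CPM in -VE libraries. The 3 groups did not overlap. Btc rose in Hyper against ENR-organoids (log2 0.43, SE 0.09, adjusted p = 0.00484), rose more in -VE-organoids (log2 0.85, SE 0.10, adjusted p = 0.00522), and was lower in Hyper than in -VE-organoids (log2 -0.42, SE 0.10, adjusted p = 0.0111). Hbegf, a heparin-binding ligand of the same receptors, read 79.8, 82.7 and 76.8 CPM in ENR, 69.1, 64.3 and 66.7 CPM in Hyper, and 50.4 and 46.8 CPM in -VE libraries. Its groups did not overlap either, with -VE-organoids lowest. The log2 fold change was -0.72 in -VE against ENR (SE 0.06, adjusted p = 0.00193), -0.26 in Hyper against ENR (SE 0.05, adjusted p = 0.00384) and 0.46 in Hyper against -VE-organoids (SE 0.06, adjusted p = 0.000701). The lower Btc in Hyper than in -VE-organoids missed the threshold without either -VE library (adjusted p = 0.0568 without library 1 and 0.0582 without library 2).

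Areg, the low-affinity EGFR ligand that is often raised in injured epithelium, varied widely among replicates. Its levels were 42.5, 49.9 and 33.3 CPM in ENR, 30.7 and 22.8 CPM in -VE, and 66.3, 21.8 and 41.7 CPM in Hyper libraries. The Hyper libraries held both the highest and the lowest of all 8 values. The log2 fold change was 0.05 against ENR (SE 0.35, adjusted p = 0.923) and 0.70 against -VE-organoids (SE 0.40, adjusted p = 0.188). Ereg was near the detection limit, with 11, 4 and 9 UMIs in ENR, 9 and 7 UMIs in -VE, and 57, 2 and 57 UMIs in Hyper libraries. Hyper libraries 1 and 3 were above all others and Hyper library 2 below all others (log2 1.97, SE 1.02, adjusted p = 0.132 against ENR). Without Hyper library 2, Ereg passed the test against ENR-organoids (log2 2.56, adjusted p = 0.00489), and Ereg and Areg (log2 1.02) both passed against -VE-organoids. Hyper library 2 was also the lowest for Areg. Nrg1 had 0 to 2 UMIs in each ENR and -VE library and 3 to 10 UMIs in each Hyper library, too few to be tested.

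**Figure D1:**
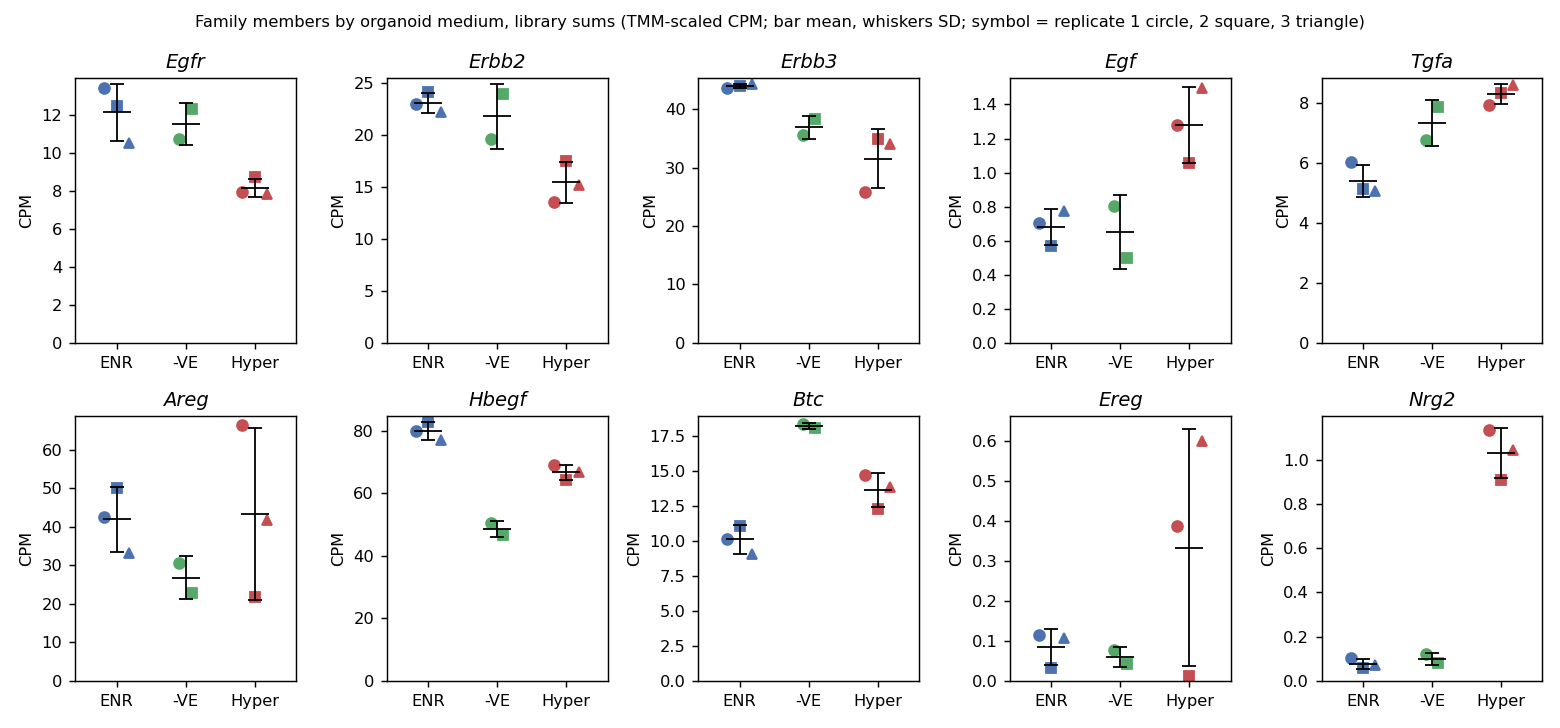
Level of 9 members (all but Nrg1) and of the related ligand gene Nrg2 in the 8 organoid libraries, in TMM-scaled CPM on linear axes that start at 0; points are libraries, horizontal bars group means and whiskers the SD. Egfr sits at 7.87 to 8.73 CPM in the Hyper libraries and at 10.52 CPM or more elsewhere, Btc and Hbegf rank the media in opposite orders, and Areg spreads from 21.8 to 66.3 CPM within the Hyper group.

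The second comparison, Hyper against -VE-organoids, concerned VPA and EPZ6438 together, since the media differ in both. In it, 5 of 9 members passed the test (Egfr, Erbb2 and Btc lower, Hbegf and Egf higher), against 47.6% of all genes, with 25% of all genes higher and 22.6% lower. None was called at 2-fold, against 18.6% of all genes, and in 7 of 9 the groups did not overlap, as in 67% of all genes. This count rested on the 2 -VE libraries: without -VE library 2 only 1 member passed, as did 27.3% of all genes in that fit, Egfr standing at an adjusted p of 0.0996 and Erbb2 at 0.12. The third comparison, -VE against ENR-organoids, concerned the other changes of the medium. In it 2 of 9 members passed, against 7.88% of all genes, Btc higher (4.26% of all genes) and Hbegf lower (3.62%), and in 5 of 9 the groups did not overlap (45.7% of all genes). Tgfa, higher in both -VE libraries than in any ENR library, missed the threshold (log2 0.44, SE 0.11, adjusted p = 0.0531) and passed it under 5 alternatives, at adjusted p from 0.00772 with DESeq2 to 0.0493 with a filter of 5 CPM. None of the 9 reached 2-fold, against 2.55% of all genes, 3 passed at an unadjusted p under 0.05, and 3 passed with DESeq2, for which the share of all genes is not given here. The 3 comparisons share libraries, so their values are given side by side and are not independent of each other.

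Levels by cell class showed where in the organoid each member was read out. Class levels are plain CPM of the UMIs summed over the cells of a class in a library, given as the median and range over libraries with at least 10 such cells, with no test. Cells of 1 library share its free RNA and depth, so the order of classes is a description. By median, Areg was highest in the revival stem class (RSC, a rare Clu-positive class), at a median of 410 CPM (164 to 818 CPM, 3 libraries), and in enterocytes, at 279 CPM (98.4 to 821 CPM, 7 libraries). In the other classes its median was 6.05 to 23.9 CPM, lowest in enteroendocrine cells. Revival stem and enterocyte ranges overlapped each other, and their order differed between libraries with at least 10 cells of both. In -VE library 2 the revival stem class was above enterocytes (818 and 98.4 CPM), and in Hyper libraries 2 and 3 it was below them (164 and 279 CPM, and 410 and 821 CPM). Of the other classes only stem cells, at up to 101 CPM, reached the lowest enterocyte value, and none reached the revival stem range. Hbegf was highest in enterocytes (230 CPM, 111 to 326 CPM) and revival stem cells (108 CPM, 101 to 132 CPM), with enterocyte progenitors at 76.0 CPM and Paneth cells at 23.5 CPM. Over 50 class sums, Areg and Hbegf had the highest correlation of any pair of members (Pearson r = 0.87 of log2(CPM + 1)), and these sums share libraries and depth.

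Btc was highest in the revival stem class (51.0 CPM, 31.6 to 158 CPM), above enterocytes (22.96 CPM, 7.66 to 30.8 CPM) without overlap, and lowest in Paneth cells (4.12 CPM). Tgfa was also highest in the revival stem class (16.6 CPM, 16.3 to 19.6 CPM), and its medians in the other classes lay between 5.11 and 8.26 CPM with overlapping ranges. Ereg had a median of 4.90 CPM in the revival stem class (0 to 11.9 CPM) and of 0.039 CPM or less elsewhere. Its range in enterocytes, 0 to 11.3 CPM, was nearly that of the revival stem class. Enterocytes held 0 to 72.7% of the few Ereg UMIs in ENR libraries and 0 to 19.3% in Hyper libraries. Of the 57 Ereg UMIs of Hyper library 3, the 26 revival stem cells held 18 UMIs, of which 12 came from 1 cell. The revival stem class numbered only 17, 14 and 26 cells in the libraries used and was absent from ENR-organoids, so its values rest on few cells.

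Egf had another distribution. It was highest in Paneth cells (10.4 CPM, 4.12 to 22.7 CPM, 6 libraries), then in goblet cells (3.29 CPM) and enteroendocrine cells (1.92 CPM), and its median was under 1 CPM in stem, TA, progenitor and enterocyte classes. Neighbours in this order overlapped in range, and in the Hyper libraries the mean was 7.78 ± 1.58 CPM in enteroendocrine and 6.80 ± 0.52 CPM in goblet cells (SD, n = 3 each). Paneth cells numbered 10 to 59 in the 6 libraries and held 4.62 to 14.7% of the 65 to 68 Egf UMIs of an ENR library. Their Egf values thus rest on few UMIs. Nrg1 UMIs were too few to rank, with a median of 0.51 CPM in enteroendocrine cells and 0 in all other classes.

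Among the receptors, Erbb2 was highest in enterocytes (37.2 CPM, 34.0 to 46.3 CPM), above enterocyte progenitors (23.9 CPM, 18.6 to 25.8 CPM) without overlap, and lowest in Paneth cells (8.13 CPM). Erbb3 was highest in enterocytes (72.6 CPM, 63.7 to 85.4 CPM) and enteroendocrine cells (56.9 CPM, 47.5 to 103 CPM), which overlapped each other, and lowest in Paneth cells (19.1 CPM). Of the remaining classes, goblet and revival stem cells reached into the enteroendocrine range, at up to 48.9 and 62.1 CPM, and none reached the enterocyte range. Egfr differed from both. Its median was highest in the revival stem class (24.1 CPM) and enteroendocrine cells (13.4 CPM), 10.99 to 11.4 CPM in stem, TA and progenitor cells, 5.13 CPM in enterocytes and 2.34 CPM in Paneth cells. By median, enterocytes thus combined the highest Erbb2, Erbb3 and Hbegf with nearly the lowest Egfr, and Paneth cells the highest Egf with the lowest level of each receptor.

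**Figure D2:**
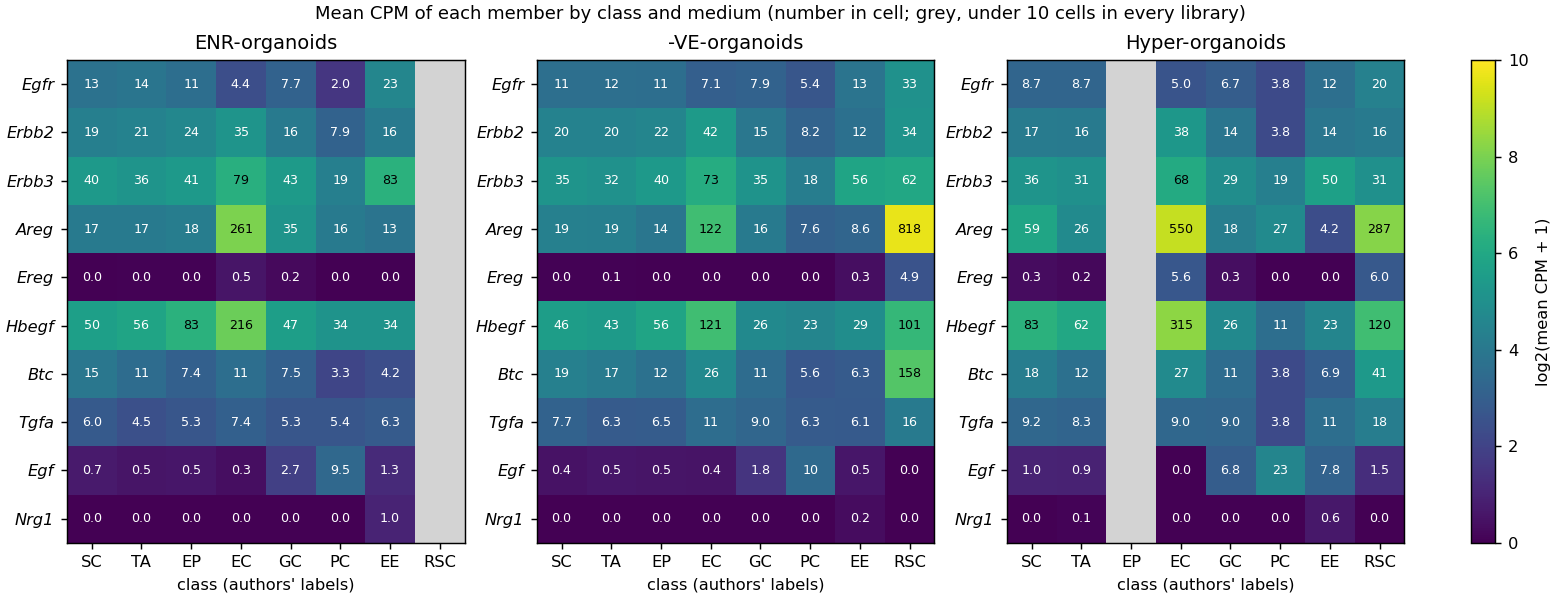
Mean plain CPM of each member in the 8 labelled classes, with a panel for each medium, over libraries with at least 10 cells of the class; the colour is log2(mean CPM + 1), the number in a cell the mean CPM, and grey marks classes with no such library. In each medium Areg is highest in enterocytes (EC, 261 CPM in ENR) or the revival stem class (RSC, 818 CPM in the 1 -VE library), Erbb2 in enterocytes and Egf in Paneth cells (PC), whose Hyper value rests on 10 cells of 1 library.

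The genes whose class pattern was most like a member's were ranked by Pearson r of log2(CPM + 1) over the 50 class sums, as a description. For Areg these were Lgals3 (r = 0.85), Vmp1 and Ahnak (both 0.85), and for Hbegf Ms4a18, Mall and Myo5b (0.90 to 0.91). For Erbb2 they were Mgat4a, Eps8l3 and Bpnt1 (0.91 to 0.93), and for Erbb3 Akr1c13, Akr1c12 and Sgpl1 (0.90 to 0.92). Egfr was most like Mrpl1, Aebp2 and Ranbp3 (0.91 to 0.92), Btc most like Wwc1, Tspo and Myl12a (0.84 to 0.89), and Tgfa most like Ndrg2, Agrn and Pak1 (0.70 to 0.72). Egf followed Copz2, Tmed6 and Habp2 (0.85 to 0.87), while Ereg (Glipr1 and Jag1 among others) and Nrg1 (Trpa1, Ptprn and Etv1) had too few UMIs for the ranking to be firm.

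The cells that carried the ligand UMIs shifted with the medium. Enterocytes made up 9.78 to 13.1% of kept cells in ENR, 5.68 to 6.23% in -VE and 0.25 to 1.65% in Hyper libraries, while the stem class made up 9.75 to 14.7%, 24.3 to 28.2% and 40.0 to 44.1%. Of all Areg UMIs, enterocytes held 58.3 to 63.1% in ENR, 20.8 to 25.7% in -VE and 3.93 to 20.7% in Hyper libraries. The stem class held 3.14 to 5.22% of them in ENR, 14.1 to 21.2% in -VE and 42.2 to 51.4% in Hyper libraries. Hbegf UMIs moved likewise, from 23.6 to 31.0% in enterocytes and 4.79 to 8.27% in the stem class of ENR libraries to 0.913 to 7.67% and 38.7 to 48.1% in Hyper libraries.

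Changes were next tested inside the 4 classes with at least 20 cells in every organoid library (stem, TA, goblet and enteroendocrine), on UMI sums per class and library with the same edgeR test and TMM factors of the class. The study's text assigns the stem cells of Hyper- and of ENR-organoids to different clusters and describes their TA cells as apart too, so changes in these 2 classes compare cells that share a class label and may not share a cluster. The labels used here give no cluster for organoid cells, and the part of this split in the results was not tested. In stem cells, Areg and Hbegf, 2 ligands of EGFR, were higher in Hyper- than in ENR-organoids. Areg read 16.8, 15.5 and 19.2 CPM in the stem cells of ENR libraries, 25.4 and 14.3 CPM in -VE libraries, and 95, 27.2 and 44.6 CPM in Hyper libraries. Each Hyper library was above each other library, Hyper library 1 by far. Areg rose by 1.71 on the log2 scale against ENR (SE 0.43, adjusted p = 0.00895) and by 1.49 against -VE-organoids (SE 0.46, adjusted p = 0.0244). The change against ENR-organoids passed the test without any 1 library, at log2 values from 1.10 to 2.06. Hbegf in stem cells read 49.9, 60.5 and 42.8 CPM in ENR, 49.7 and 44.6 CPM in -VE, and 86.3, 68.5 and 81.2 CPM in Hyper libraries. It rose by 0.62 on the log2 scale against ENR (SE 0.13, adjusted p = 0.00319) and by 0.74 against -VE-organoids (SE 0.14, adjusted p = 0.0024).

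Areg in stem cells was uneven from cell to cell. The 5% of stem cells with the most Areg UMIs held 51.6 to 77.5% of them in a library, whereas the same share of cells held 27.6 to 36.4% of the Hbegf UMIs. With every cell thinned to 10000 UMIs and shallower cells left out (228 to 1461 stem cells of a library remained), the share of stem cells with at least 1 Areg UMI was 10.4% (7.30 to 14.4%), 7.94% (5.20 to 11.5%) and 7.89% (4.75 to 12.2%) in ENR libraries, with exact binomial 95% intervals for counting error only. It was 12.8% (10.4 to 15.6%) and 8.65% (6.98 to 10.6%) in -VE libraries and 29.2% (26.5 to 31.9%), 12.1% (10.5 to 13.9%) and 17.1% (14.6 to 19.8%) in Hyper libraries. Unthinned, the shares were 21.1%, 18.9% and 15.3% in ENR, 33.5% and 19.7% in -VE and 49.5%, 21.8% and 33.6% in Hyper libraries. In enteroendocrine cells, the class with the lowest Areg, the thinned shares were 14.5%, 11.8% and 3.64% in ENR, 4.35% and 1.19% in -VE and 6.59%, 2.00% and 2.56% in Hyper libraries. The exact intervals of the 2 classes overlapped in the 3 ENR libraries and in -VE library 1, and did not overlap in -VE library 2 and the 3 Hyper libraries. Since the class set beside stem cells is the one with the lowest Areg, a separation follows in part from that choice. The intervals count cells of a library, which are not replicates, so this is a description. Enteroendocrine cells of ENR libraries 1 and 2 held Areg at 18.7 and 15.2 CPM, near the level of their stem cells, so this class is no empty background there.

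Of the other members that passed over whole libraries, Egfr and Tgfa also passed in stem cells. Egfr fell by 0.66 on the log2 scale (SE 0.13, adjusted p = 0.00215), from 12.2 to 14.0 CPM in ENR to 7.30 to 9.40 CPM in Hyper libraries. Tgfa rose by 0.48 (SE 0.15, adjusted p = 0.0265), a call that was lost without ENR library 2 or 3. Erbb2 (log2 -0.29, adjusted p = 0.0878), Erbb3 (log2 -0.28, adjusted p = 0.104), Btc (log2 0.19, adjusted p = 0.246) and Egf (log2 0.50, adjusted p = 0.325) did not pass in stem cells. In all, 4 of 9 members passed in stem cells, against 49.5% of all genes. With the title code as a block, 7 of 9 passed, against 54.8% of all genes in that fit, adding Erbb2 (log2 -0.30, adjusted p = 0.0442), Erbb3 (log2 -0.29, adjusted p = 0.028) and Ereg (adjusted p = 0.0288). Ereg had no UMI in stem cells of the ENR libraries and 18, 2 and 13 UMIs in those of the Hyper libraries, so its fitted fold is not given. It passed the filter on low counts in this class only through Hyper libraries 1 and 3. Its place among the 7 is thus no independent support. Against -VE-organoids 5 of 9 members passed in stem cells (44% of all genes), namely Areg, Hbegf and Egf (log2 1.19, adjusted p = 0.0386) higher, and Egfr (log2 -0.50, adjusted p = 0.0128) and Erbb2 (log2 -0.39, adjusted p = 0.0385) lower. Between -VE- and ENR-organoids none of the 9 passed in stem cells (1.54% of all genes), and 1 passed at an unadjusted p under 0.05.

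TA cells, the dividing daughters of stem cells, showed the receptor and Tgfa changes without those of Areg and Hbegf. Egfr fell from 12.7 to 15.4 CPM in ENR to 7.97 to 8.52 CPM in Hyper libraries (log2 -0.78, SE 0.10, adjusted p = 0.000188), and Erbb2 fell by 0.47 (SE 0.11, adjusted p = 0.00583). Erbb3 fell by 0.30 (adjusted p = 0.0386), a call lost without any of 5 libraries in turn and with DESeq2's size factors. Tgfa rose from 4.23 to 5.19 CPM in ENR to 7.49 to 8.30 CPM in Hyper libraries (log2 0.78, SE 0.11, adjusted p = 0.000484). These 4 of 9 members compare with 55.8% of all genes, and Egf passed as well with the title code as a block (log2 0.78, adjusted p = 0.0364). Areg in TA cells of Hyper libraries read 47.3, 11.3 and 16.4 CPM and overlapped ENR (log2 0.56, adjusted p = 0.36). Hbegf differed by 0.06 on the log2 scale (SE 0.06, adjusted p = 0.395). Between -VE- and ENR-organoids, Btc rose (log2 0.70, adjusted p = 0.019) and Hbegf fell (log2 -0.37, adjusted p = 0.0212) in TA cells, against 3.14% of all genes. Between Hyper- and -VE-organoids 4 of 9 members passed (47.3% of all genes), with Hbegf higher and Btc, Egfr and Erbb2 lower.

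In goblet cells, which make mucus, Hbegf moved the other way. It read 44.7, 53.1 and 49.2 CPM in ENR, 28.9 and 23.5 CPM in -VE, and 29.4, 22.4 and 22.5 CPM in Hyper libraries, so both other media lay below ENR. The log2 fold change was -0.98 in Hyper (SE 0.14, adjusted p = 0.000285) and -0.92 in -VE-organoids (SE 0.15, adjusted p = 0.0101) against ENR-organoids. Erbb3 fell by 0.68 (SE 0.15, adjusted p = 0.00505), Tgfa rose by 0.63 (adjusted p = 0.036) and Egf rose by 1.26 (SE 0.38, adjusted p = 0.0235). The Tgfa call was lost with DESeq2 and without any of 6 libraries in turn, and the Egf call without ENR library 1, ENR library 2 or Hyper library 3. Egf in goblet cells read 2.37, 1.76 and 4.39 CPM in ENR, 2.52 and 1.19 CPM in -VE, and 6.20, 6.09 and 7.41 CPM in Hyper libraries, with every Hyper library highest. Against -VE-organoids its log2 fold change was 1.91 (SE 0.40, adjusted p = 0.0056). In all, 4 of 8 members passed in goblet cells in Hyper against ENR-organoids (31% of all genes), 1 of 8 in Hyper against -VE-organoids (20.4%) and 1 of 8 in -VE against ENR-organoids (2.23%).

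In enteroendocrine cells, the hormone-producing class, 3 of 8 members passed in Hyper against ENR-organoids (14% of all genes), on 61 to 107 cells in a library. Egf read 0, 2.65 and 1.06 CPM in ENR, 0.60 and 0.51 CPM in -VE, and 6.61, 7.34 and 9.70 CPM in Hyper libraries. These levels rest on 5 UMIs over the 3 ENR libraries, 2 UMIs over the -VE libraries and 51 UMIs over the Hyper libraries. Egf passed the filter on low counts in this class only through the Hyper libraries, where it is high. Its calls here, and its place in the counts against both other media, are thus no independent support. Egf rose by 2.53 on the log2 scale against ENR (SE 0.65, adjusted p = 0.0231), and DESeq2 gave an adjusted p of 0.0547. With 1 library left out this value ranged from 1.92 to 3.97, highest without ENR library 2. Egfr fell by 0.91 (adjusted p = 0.0214, and 0.115 with DESeq2) and Erbb3 by 0.65 (adjusted p = 0.024). None of the 3 calls held without ENR library 1 or without Hyper library 2. With the title code as a block, Areg was also lower in Hyper-organoids (log2 -1.60, adjusted p = 0.0228). Between -VE- and ENR-organoids no member passed (0.199% of all genes), and 2 passed at an unadjusted p under 0.05. Against -VE-organoids 1 of 8 passed in Hyper-organoids, Egf (5.1% of all genes, adjusted p = 0.0234).

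**Figure D3:**
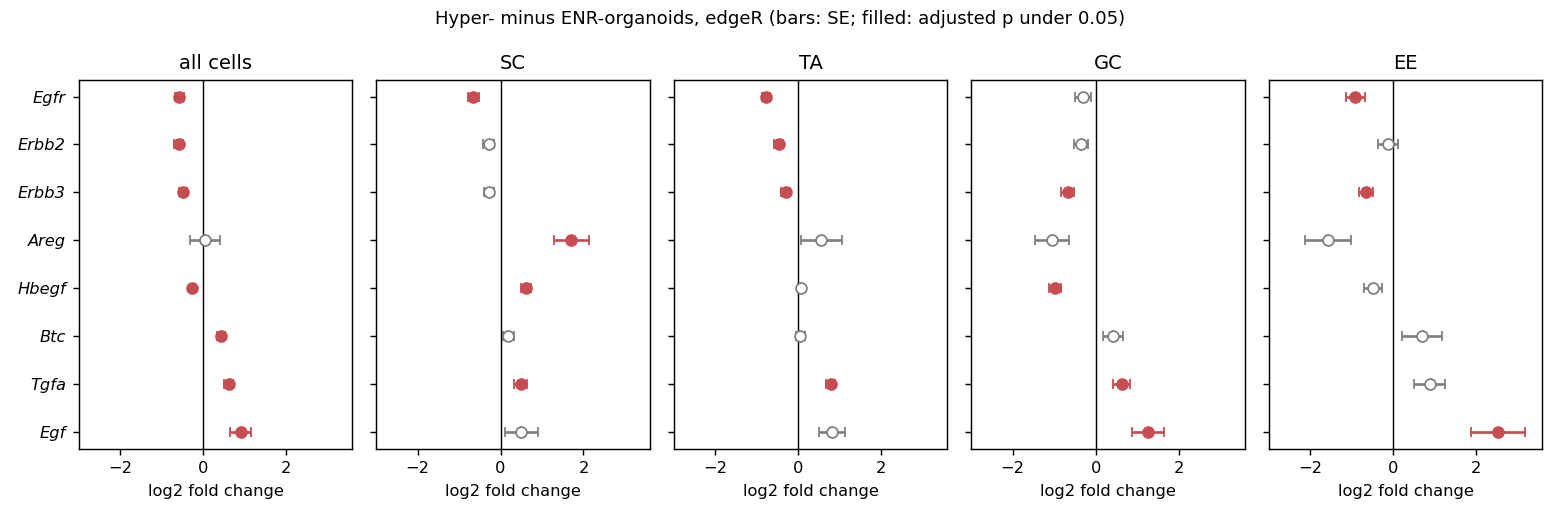
Log2 fold change of 8 members in Hyper- against ENR-organoids, over all cells and within stem (SC), TA, goblet (GC) and enteroendocrine (EE) cells, with bars of 1 standard error from edgeR and filled points for an adjusted p under 0.05. Areg and Hbegf are above 0 in stem cells (1.71 and 0.62) and Hbegf is below 0 in goblet cells (-0.98), while the points of Egfr lie below 0 and those of Tgfa above 0 in all 4 classes, not all of them filled.

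**Figure D4:**
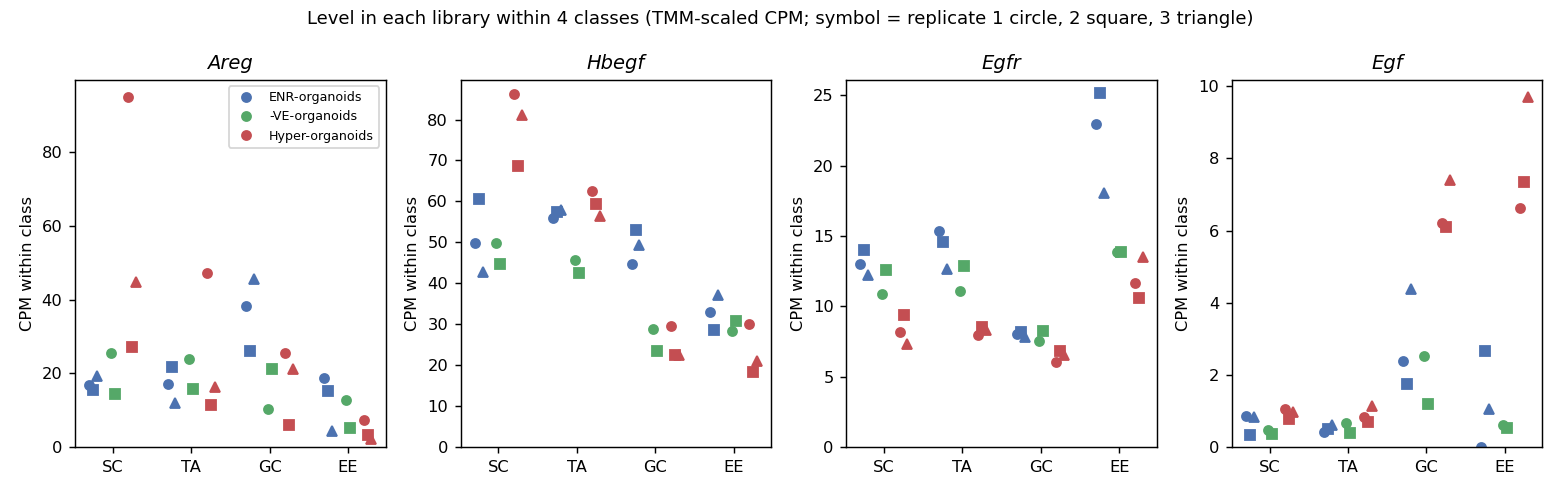
Levels of Areg, Hbegf, Egfr and Egf in each organoid library within stem (SC), TA, goblet (GC) and enteroendocrine (EE) cells, in TMM-scaled CPM of the class; each point is a library, coloured by medium. Areg in stem cells reads 27.2 to 95 CPM in Hyper and 15.5 to 19.2 CPM in ENR libraries, and Hbegf in goblet cells 22.4 to 29.4 CPM in Hyper and 44.7 to 53.1 CPM in ENR libraries.

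Whether the effect of the medium differed between classes was tested as an interaction against the stem class, with the library as a block. For Areg the Hyper-minus-ENR effect was lower than in stem cells by 1.26 on the log2 scale in TA cells (SE 0.16, adjusted p = 2.59e-05), by 2.78 in goblet cells (SE 0.35, adjusted p = 8.21e-05) and by 3.41 in enteroendocrine cells (SE 0.44, adjusted p = 9.15e-05). For Hbegf it was lower by 0.55 in TA cells (SE 0.09, adjusted p = 0.000255), by 1.62 in goblet cells (SE 0.13, adjusted p = 8.56e-07) and by 1.14 in enteroendocrine cells (SE 0.23, adjusted p = 0.00316). Over all genes, 15.1%, 14.1% and 10.9% of interactions passed in TA, goblet and enteroendocrine cells. No other member's interaction passed in these classes for Hyper against ENR-organoids. For -VE against ENR-organoids only Hbegf in goblet cells passed (log2 -0.80, SE 0.13, adjusted p = 0.0119), among 0.55% of all genes.

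Genes of the dissociation stress response moved with these ligands in several classes. The summed level of 14 immediate-early and heat-shock genes, a list chosen after the values were seen that holds Egr1 from the ERK target list, was 1336, 1404 and 1104 CPM in stem cells of the ENR libraries and 2203, 1520 and 1800 CPM in those of the Hyper libraries. In goblet cells it was 1935, 1842 and 2073 CPM in ENR and 1745, 1321 and 1226 CPM in Hyper libraries. In enteroendocrine cells it was 4083, 3000 and 3920 CPM in ENR and 2911, 2481 and 2671 CPM in Hyper libraries. The -VE libraries stood at 1358 and 1001 CPM in stem cells and at 1298 and 1006 CPM in goblet cells, below every Hyper library in stem cells and below every ENR library in goblet cells. In TA cells it was 1574, 1486 and 1357 CPM in ENR and 2019, 1583 and 1659 CPM in Hyper libraries, higher in each of the latter, whereas neither Areg nor Hbegf passed there. The order of the Hyper libraries for this list in stem cells was that for Areg. The part of this response in the Areg and Hbegf results was not tested.

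Around the receptors and ligands, 81 related genes were followed in 7 lists, chosen for their place in the pathway. Of the 77 with enough UMIs, 23 were higher and 22 lower in Hyper than in ENR-organoids over whole libraries, a share near that of all genes (56.8%). Among the other family genes, Nrg2, a neuregulin, stood at 0.08 ± 0.02 CPM in ENR and 1.03 ± 0.11 CPM in Hyper libraries (SD, n = 3 each). The log2 fold change was 3.72 (SE 0.30, adjusted p = 2.58e-05), with -VE libraries at 0.10 ± 0.03 CPM (SD, n = 2), and neither group overlapped the Hyper libraries. Nrg2 had 10, 7 and 6 UMIs in ENR, 14 and 13 UMIs in -VE, and 167, 137 and 99 UMIs in Hyper libraries. Its folds thus rest on few UMIs outside the Hyper libraries. Epgn and Nrg4 differed by -0.60 (adjusted p = 0.323) and -0.45 (adjusted p = 0.239), and Erbb4 and Nrg3 were too low to test.

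ERK feedback and target genes, which ERK signals induce, had 8 genes higher and 1 lower of 14, where 29.5% of all genes were higher and 27.3% lower, so the share that passed either way was near that of all genes (56.8%). Phlda1 rose from 173 ± 4.34 CPM in ENR to 361 ± 19.4 CPM in Hyper libraries (SD, n = 3 each, log2 1.06, adjusted p = 4.62e-06). Etv4 (log2 0.98), Etv5 (log2 0.87), Spry1 (log2 0.73), Spry4 (log2 0.70), Dusp6 (log2 0.68), Ier3 (log2 0.65) and Spred2 (log2 0.37) rose as well, and Dusp5, a phosphatase of ERK, fell by 0.38 on the log2 scale. The list's median log2 fold change was 0.51, against -0.01 over all genes. Egr1, another of its genes, differed by 0.16 (adjusted p = 0.568). Of the 13 Ras, Raf, Mek and Erk genes, 8 were lower and 2 higher (27.3% and 29.5% of all genes), among them Ksr1 (log2 -0.65), Map2k2 (log2 -0.53) and Mapk3 (log2 -0.50) lower and Braf (log2 0.38) higher. Adaptors had 5 lower and 1 higher of 12, for example Sos2 (log2 -0.60) and Shc1 (log2 -0.42). No test compared these lists with each other or with all genes.

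Of the inhibitors and ubiquitin ligases that act on the receptors, 5 of 16 were higher and 5 lower (29.5% and 27.3% of all genes, as for the lists that follow). Lrig3, a transmembrane protein of the LRIG family, fell from 41.7 ± 2.88 CPM in ENR to 13.0 ± 0.28 CPM in Hyper libraries (SD, n = 3 each, log2 -1.68, adjusted p = 1.09e-06). Socs5 rose from 2.03 ± 0.18 to 4.63 ± 0.31 CPM (log2 1.19, adjusted p = 0.000118), and Lrig1, a receptor inhibitor that marks stem cells, differed by 0.12 (adjusted p = 0.648). Among sheddases and their cofactors, 3 were higher and 1 lower of 8 tested, including Adam17 (log2 0.33, adjusted p = 0.0037), which releases several of these ligands, and Rhbdf1 (log2 0.63, adjusted p = 0.000566), which carries it to the surface. Of 11 PI3 kinase and Akt genes, 3 were higher and 2 lower. Among them Pik3cd, a catalytic subunit of PI3 kinase, rose from 0.04 ± 0.02 CPM in ENR to 0.19 ± 0.03 CPM in Hyper libraries (adjusted p = 0.00407, SD, n = 3 each), and it is too low in ENR libraries for a fold to be given. Pik3cd passed the filter on low counts only through the Hyper libraries, where it is high. Its call and its place in these counts are thus no independent support.

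Against -VE-organoids, 15 related genes were higher and 16 lower (47.6% of all genes passed). Those past 2-fold included Pik3cd, Nrg2 (log2 3.38, adjusted p = 0.000164) and Egr1 (log2 1.07, adjusted p = 0.0103), all higher in Hyper-organoids. Pik3cd (0.02 CPM in -VE libraries) was tested here too only through the Hyper libraries, so its call is no independent support. In -VE against ENR-organoids 5 related genes were higher and 3 lower (7.88% of all genes), none past 2-fold, and 14 passed with DESeq2, for which the share of all genes is not given here. Of the 5 higher, 4 were ERK feedback and target genes, namely Phlda1, Etv4, Etv5 and Spred2. Of the same list of 14 genes, 1 was lower, where 4.26% of all genes were higher and 3.62% lower.

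The colonic libraries addressed the family in injured epithelium in vivo. They were 1 library each, so no test was made, and intervals are exact Poisson 95% intervals that cover counting error only. Of the 9 members with at least 1 CPM in either library, only Ereg passed 2-fold in DSS crypts, against 5.08% of 12437 genes (3.55% higher). Ereg read 3.57 CPM in the normal library (2.79 to 4.50 CPM) and 9.48 CPM in the DSS library (8.45 to 10.6 CPM), a ratio of 2.66 (2.05 to 3.49). Erbb2 read 27.1 and 45.0 CPM, a ratio of 1.66 (1.51 to 1.84), and Erbb3 41.9 and 69.4 CPM, a ratio of 1.65 (1.53 to 1.79). Egfr read 11.3 and 12.2 CPM, a ratio of 1.09 whose interval (0.92 to 1.29) held 1. Areg read 562 and 538 CPM (ratio 0.956, 0.933 to 0.979) and Hbegf 540 and 572 CPM (ratio 1.06, 1.03 to 1.08), so both libraries held these ligands at nearly one level. The dissociation stress list summed to 11981 CPM in the normal and 10579 CPM in the DSS library, against 1098 to 2100 CPM in the organoid libraries. Its part in these levels was not tested. Tgfa was lower in the DSS library (21.8 and 16.5 CPM, ratio 0.756, 0.665 to 0.86), as was Btc (5.68 and 4.20 CPM, ratio 0.74, 0.572 to 0.958). Egf read 1.05 CPM in both, and Nrg1 had 1 and 10 UMIs (ratio 6.14, 0.874 to 267). The median log2 ratio was 0.08 over the members and 0.03 over all genes.

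The makeup of the 2 colonic libraries differed, so the members were read within the authors' numbered clusters. Clusters are called here by number and by their leading genes, since the authors' annotation names only cluster 2, as stem. Leukocyte clusters were taken as those in which over 50% of cells had a Ptprc UMI, and they held little of most members. This rule left cluster 22 (Camp, Ngp and S100a8, genes of neutrophils, in 21 DSS cells) among the other clusters, where it read 586 CPM for Areg and 310 CPM for Hbegf. Areg was at 17.9 to 35.6 CPM in those of the normal library and at 16.2 to 731 CPM in those of the DSS library (highest in cluster 18, which is described further on), whereas the other clusters of at least 20 cells held 147 to 998 CPM and 45.6 to 1005 CPM. Erbb2 and Erbb3 were highest in clusters of absorptive genes. Cluster 17 (Ces2b, Slc10a2), found in the DSS library, read 302 CPM for Erbb2 and 292 CPM for Erbb3, and cluster 12 (Aqp8, Car4, Isg15), from the normal library, 127 and 159 CPM. The values of cluster 17 rest on 57 and 55 UMIs in 57 cells, and those of cluster 12 on 81 and 104 UMIs over both libraries. Cells of both clusters held on average far fewer UMIs than the median cell of their library (16051 in DSS, 18374.5 in normal). The part of depth in these levels was not tested. Egfr was highest in cluster 16 of Chga and Chgb cells, at 52.2 CPM over both libraries (23 UMIs), and Egf in the goblet-gene clusters 5 (6.2 CPM, 32 UMIs) and 19 (4.4 CPM, 3 UMIs).

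Within the 5 clusters outside the leukocytes with at least 20 cells in both libraries, Erbb2 and Erbb3 were higher in the DSS cells in 4, with intervals above 1. The share of all genes with such intervals is not given here, so these counts of clusters are no result about the family. In cluster 1 (Ces1g, Ugt2b5) Erbb2 read 27.2 CPM in normal and 67.1 CPM in DSS cells (ratio 2.47, 1.89 to 3.25), and in cluster 2 (stem) 13.4 and 44.9 CPM (ratio 3.35, 2.29 to 5.04). Erbb3 read 35.9 and 91.7 CPM in cluster 1 (ratio 2.56, 2.03 to 3.25) and 29.7 and 85.8 CPM in cluster 2 (ratio 2.89, 2.23 to 3.79). Ereg was higher in DSS cells in cluster 1 (3.71 and 13.6 CPM, ratio 3.66, 1.83 to 8.32), and its interval held 1 in the other 4. Areg was higher in DSS cells in clusters 1 and 2 and lower in cluster 6, and in cluster 2 read 210 and 489 CPM (ratio 2.33, 2.11 to 2.58). Hbegf was higher in clusters 2 and 5 and lower in cluster 13, and in cluster 2 read 573 and 857 CPM (ratio 1.49, 1.40 to 1.59). Egfr was higher in DSS cells in cluster 6 (2.69 and 9.22 CPM on 4 and 31 UMIs, ratio 3.42, 1.21 to 13.3), and its interval held 1 in the other 4. Btc, Tgfa and Egf had intervals that held 1 in all 5 clusters.

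The highest Areg levels stood in clusters found in 1 library. Cluster 3, with interferon-induced genes and all but 1 of its cells in the normal library, read 998 CPM there, and cluster 9, led by Ido1 and Clu and with all but 2 cells in the DSS library, 1005 CPM. Cluster 9 also held the highest Ereg of the DSS clusters, 26.6 CPM. Such clusters may be of a library and not of a cell type. Cluster 18, which joined Dcn and Col3a1 cells with Il17a, read 731 CPM of Areg in 33 DSS cells, with Hbegf at 17.4 CPM. Nrg1, at 0 or near it in other clusters, had 8 of its 11 colonic UMIs in cluster 21 (C1qa, C1qb and Apoe).

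**Figure D5:**
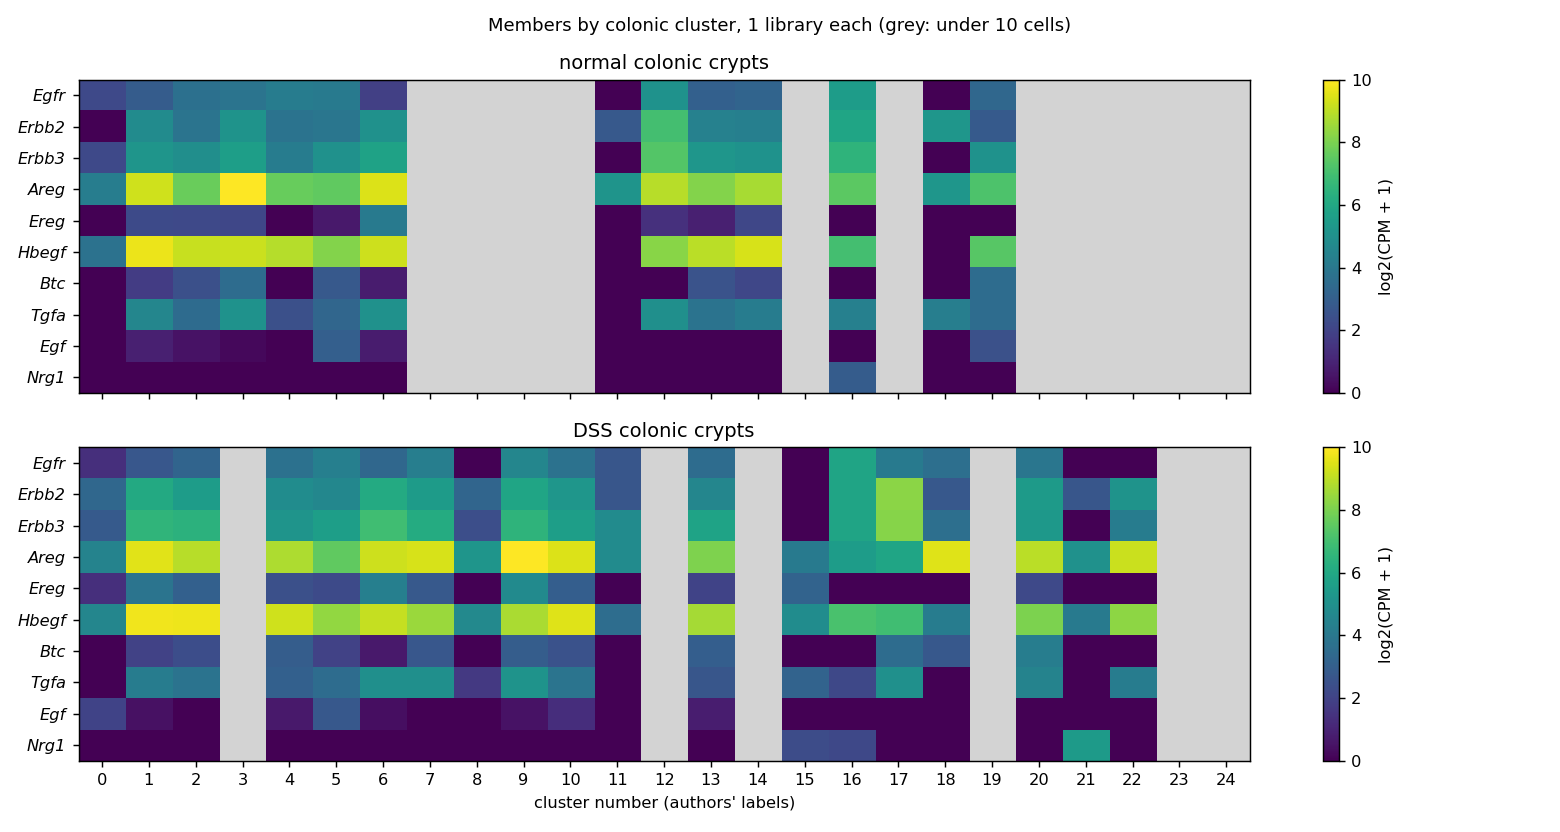
Level of each member in the numbered colonic clusters of the normal library (top) and the DSS library (bottom), as the colour of log2(CPM + 1); grey marks clusters with under 10 cells in the library. Erbb2 and Erbb3 are highest in cluster 12 of the normal and cluster 17 of the DSS library, and Areg is highest in cluster 3 of the normal and cluster 9 of the DSS library.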

How the data were processed

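Transcripts were counted by the authors as UMI counts from 10x 3′ single-cell libraries, and the deposited matrices hold raw counts per gene and cell barcode. Processing notes of the submitters name Cell Ranger 3.0.0, Seurat 3.1.4 and mm10, while the matrix header gives Cell Ranger 3.1.0. The methods state a minimum of 1500 genes and a maximum of 25% mitochondrial reads, but the kept cells of the deposited table include cells with as few as 501 genes and none above 20% mitochondrial reads. The authors' kept cells and cell class labels were used as deposited. How doublets were treated is not given in the sources used here, and none were removed. UMI counts of kept cells were summed per library, or per class and library where every organoid library had at least 20 cells of the class.

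Sums of the 8 organoid libraries were fitted together in edgeR 4.0.16 (R 4.3.3, limma 3.58.1) with TMM factors, its default filter on low counts and the quasi-likelihood test, adjusted by Benjamini-Hochberg over all genes tested. DESeq2 1.42.0 was an alternative, and the edgeR code was tested on simulated data. The interaction of class and medium had the library as a block. The colonic libraries, 1 per group, received exact Poisson intervals (SciPy 1.17.1) and log2 ratios with a pseudocount of 1 CPM. The alternatives were another normalisation, other filters, all barcodes, thinned cells, stem cells only, the title code as a block and each library left out. Intervals cover counting error only. Where nothing says that replicates came from separate mice, p-values measure the spread between these cultures.

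A code shared by libraries of the same number was read from the sample titles. Deviations from the group mean correlated between ENR and Hyper libraries of the same code at 0.192, 0.17 and 0.436. Across the codes of libraries 1 and 2 they correlated at 0.062 and 0.129, and across either and that of libraries 3 at -0.292 to -0.179. The codes were taken to pair the samples, though only that of libraries 3 stood well apart. The main fits leave the pairing out, and the block was an alternative. The members and gene lists were chosen with earlier results of these data known. All 10 members are named. Of the related genes, those of the family and up to 5 called genes in each comparison were to be named, and further ones named were chosen after their values were seen. Like genes were the 3 with the highest r among genes of at least 5 CPM on average. A few genes that these rules would name are not reported here. Promoter sequences are from RefSeq (GRCm38.p6) and gene positions from GENCODE vM21. The text on DSS and medium composition follows the study's methods, and protein sequences were not used here.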

Additional observations from a re-analysis of the deposited data

Results flagged for a closer look

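In all, 7 member effects differed between cell classes by the interaction test, in which the Hyper-minus-ENR or -VE-minus-ENR effect of a class was set against that of stem cells. All 7 were of Areg or Hbegf and shared the stem-cell estimates, so they are not 7 separate results. Over all genes, 15.1%, 14.1% and 10.9% of interactions passed in TA, goblet and enteroendocrine cells for Hyper against ENR-organoids. For -VE against ENR-organoids the shares were 1.29%, 0.55% and 0.28%. For Areg in Hyper against ENR-organoids the difference from stem cells was -1.26 on the log2 scale in TA cells (adjusted p = 2.59e-05), -2.78 in goblet cells (adjusted p = 8.21e-05) and -3.41 in enteroendocrine cells (adjusted p = 9.15e-05). For Hbegf in the same comparison it was -0.55 in TA cells (adjusted p = 0.000255), -1.62 in goblet cells (adjusted p = 8.56e-07) and -1.14 in enteroendocrine cells (adjusted p = 0.00316). For Hbegf in -VE against ENR-organoids it was -0.80 in goblet cells (adjusted p = 0.0119).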

How the results depend on the processing

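Of 450 log2 fold changes of members over libraries under an alternative, 407 kept their direction and side of the threshold, 17 changed sign, 15 lost and 11 gained significance. Within classes 319 of 370 kept both. With the title code as a replicate block, the stem-cell count of members past the threshold rose from 4 to 7 (all genes, 49.5% to 54.8%). That count includes Ereg, which entered the stem-cell test only through Hyper libraries. Over libraries, Areg in Hyper against ENR-organoids read -0.050 on the log2 scale. Ereg and Egf in -VE against ENR-organoids read 0.26 and 0.020, and none of these 3 values was past the threshold. The block also added Egf in TA cells and Areg in enteroendocrine cells, and changed no other call of a member over libraries or in the 4 classes, in any of the 3 comparisons.

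Areg in Hyper against ENR-organoids, never past the threshold over libraries, read -0.63 with all barcodes, -0.039 with the stated cell filter, -0.21 with thinned cells and -0.40 to 0.37 with 1 library left out. On stem cells only, 1 member was called and 4 passed in Hyper against ENR-organoids, 2 were called in Hyper against -VE-organoids and 0 passed in -VE against ENR-organoids. Of all genes, 49.5%, 44% and 1.54% passed in stem cells in these comparisons, in this order. In stem cells Hbegf read 0.62 in Hyper against ENR-organoids, and in -VE against ENR-organoids Erbb2 read 0.10 and Areg 0.22. The fitted value for Ereg there, 3.59, is no fold, since ENR stem cells held no Ereg UMI. In Hyper against -VE-organoids 1 member, Egf, was called without a filter on low counts and with thinned cells. Of the related genes, a filter of 5 CPM in 2 libraries left 3 called in Hyper against ENR-organoids, and 1 called and 20 passing in Hyper against -VE-organoids, where fewer genes were tested. There 20 passed with thinned cells and 18 on stem cells. In -VE against ENR-organoids 2 were called with all barcodes and 1 with the stated cell filter, and 14 passed with DESeq2 and 4 on stem cells. With DESeq2 1 member passed in enteroendocrine cells. The shares of all genes under DESeq2, other filters, all barcodes and thinned cells are not given here, so these counts are no result about the family.

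With 1 library left out, called members ranged from 0 to 2 in Hyper against ENR-organoids (without Hyper library 2, Ereg and Egf, and without ENR library 3, Egf) and from 0 to 3 in Hyper against -VE-organoids. Members past the threshold ranged from 1 to 7 in Hyper against -VE-organoids, and within classes from 0 to 3 in enteroendocrine and 2 to 5 in goblet cells. Related genes ranged from 15 to 31 passing in Hyper against -VE-organoids, and in -VE against ENR-organoids from 3 to 10 passing and 0 to 1 called. The share of all genes that passed moved between these fits too. In Hyper against -VE-organoids it was 41.4% without Hyper library 2 and 47.6% without ENR library 3. In -VE against ENR-organoids it was 2.09% without ENR library 2 and 10.3% without Hyper library 1. These ranges of counts are thus no result about the family. Signs also turned, never past the threshold, for Egfr (-0.19 to 0.016), Erbb2 (-0.25 to 0.047) and Egf (-0.45 to 0.23) in -VE against ENR-organoids, Areg (-0.29 to 0.92) and Btc (-0.013 to 0.16) in TA cells, and Erbb2 in enteroendocrine cells (-0.23 to 0.059). In the colon, 7 of 40 log2 ratios under an alternative left their counting interval, 4 with all barcodes and 3 with cells thinned to 5000 UMIs. With all barcodes, for example, the log2 ratio was 0.35 for Erbb2 and 0.52 for Erbb3, against 0.71 for each over kept cells. The cause of these changes was not tested. The -VE group rests on 2 libraries, Ereg, Egf and Nrg1 on few UMIs, and the colon on 1 library per group.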
